A study of Mus musculus with 24 samples.

Results

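The genes described here are 10 members of the TNF superfamily that act as costimulatory receptors or ligands in T cells: the receptor genes Tnfrsf4, Tnfrsf9, Tnfrsf18, Cd27 and Tnfrsf8, and the ligand genes Tnfsf4, Tnfsf8, Tnfsf14, Cd70 and Tnfsf11. They were taken from the gene table by symbol, and 10 of 10 were found among its 24537 genes. The study, titled as a work on bile acid synthesis and T cell responses in liver cancer, exposed mouse CD8+ T cells activated in culture to single bile acids and sequenced their RNA. There were 8 groups of 3 libraries. Lithocholic acid (LCA), IsoLCA, IsoAlloLCA, DehydroLCA and ursodeoxycholic acid (UDCA) were given at 50 µM, the taurine conjugates TCA (taurocholic acid) and TCDCA (taurochenodeoxycholic acid) at 100 µM, and the control cells received no bile acid. All groups, the control included, shared the activation in culture. The series text gives 24 hours of exposure, whereas the treatment protocol says overnight. The labels give no strain, sex, age or number of mice, and nothing says that the 3 libraries of a group came from separate mice or cultures, so p-values measure the spread between these libraries, which may be technical.

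Costimulatory receptors of this superfamily add to the signal of the T cell receptor. OX40 (Tnfrsf4), 4-1BB (Tnfrsf9), GITR (Tnfrsf18) and CD27 bind TRAF adapter proteins and activate NF-kB, and they are known for extending the expansion and survival of activated CD8+ T cells. Their ligands are mostly displayed by antigen-presenting cells, although activated T cells can make several of them. CD30 (Tnfrsf8) and its ligand (Tnfsf8) are both induced by T cell activation. LIGHT (Tnfsf14) binds HVEM and the lymphotoxin beta receptor, and RANKL (Tnfsf11) binds RANK and is best known for driving osteoclast formation.

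Each library held 25998051 to 41024340.5 counts in genes, and the exonic share of the totals named in the table's header was 75.6 to 84.7%. Levels are given as CPM (counts per 1000000 counts in genes), scaled by edgeR's TMM factors. Of the 10 genes, 9 had enough counts to be tested and Cd70 did not. A gene is said to have risen or fallen where edgeR's quasi-likelihood test, with Benjamini-Hochberg adjustment over all 13044 tested genes of a comparison, gave an adjusted p under 0.05. Errors of log2 fold changes are standard errors. As markers of the cells' identity, Cd8a stood at 557 to 774 CPM and Cd3e at 279 to 412 CPM over the 24 libraries. Of the 3 genes listed as CD4 T cell markers, Cd4 stood at 0.281 to 1.16 CPM and Cd40lg at 0.149 to 0.560 CPM. Zbtb7b was not low, at 33.0 to 56.8 CPM. Against control it rose with LCA and DehydroLCA and fell with TCDCA.

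The largest differences from control in these genes, those of Tnfsf4 and Tnfrsf8, were seen with IsoAlloLCA. The ligand gene Tnfsf4 was 21.8 ± 1.14 CPM in IsoAlloLCA cells and 3.11 ± 0.201 CPM in control cells (SD, n = 3 each), while the receptor gene Tnfrsf8 was 2.69 ± 0.600 CPM in IsoAlloLCA cells and 17.6 ± 1.32 CPM in control cells. The receptor genes Tnfrsf9, Tnfrsf18, Tnfrsf4 and Cd27 and the ligand gene Tnfsf8 rose as well, by less. In all, 6 of the 9 tested genes rose, 1 fell and 2 did not pass the test. Over all tested genes 58.4% were called in this comparison, 30.6% as higher and 27.8% as lower, so the count of 7 is to be read against a background in which most genes were called. The median log2 fold change of the 9 genes was 0.52, against 0.03 over all tested genes. The calls stood at 7 in each fit that left out 1 of the 6 libraries. Calls over all tested genes were not counted in fits that left out a library, here or below.

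Tnfrsf9 encodes 4-1BB, which is induced on T cells by activation. It had 602, 533 and 543 CPM in the IsoAlloLCA libraries, against 314, 396 and 354 CPM in the control libraries. Every IsoAlloLCA library was above every control library, and the log2 fold change was 0.66 ± 0.08 (adjusted p = 3.39e-07). In bulk RNA such as this, a change in the share of cells of a type and a change in RNA per cell cannot be told apart. Tnfrsf18, which encodes GITR, had 211, 195 and 201 CPM in the IsoAlloLCA libraries, against 126, 154 and 144 CPM in the control libraries. The groups did not overlap, and the log2 fold change was 0.52 ± 0.06 (adjusted p = 6.11e-08).

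Tnfrsf4, the OX40 gene, had 112, 111 and 104 CPM in the IsoAlloLCA libraries, against 73.7, 96.2 and 85.0 CPM in the control libraries. Its log2 fold change of 0.36 ± 0.08 (adjusted p = 0.000435) was the smallest rise of the 4 receptor genes that rose. The spread between control libraries was wider than that between IsoAlloLCA libraries, with control replicate 2 the highest of the controls, but the groups did not overlap. Cd27 encodes a receptor that, unlike OX40 and 4-1BB, is already present on naive T cells. It had 116, 122 and 114 CPM in the IsoAlloLCA libraries, against 77.6, 75.1 and 75.5 CPM in the control libraries, and rose by 0.63 ± 0.09 on the log2 scale (adjusted p = 7.94e-07). The interval of Cd27 counts on chr6:125232622-125237027 (mm10, minus strand) overlaps the microRNA gene Mir8113 and the antisense gene E130112N10Rik. No strand option is named for the counting, so reads of overlapping genes may have been shared. The overlapping genes had 13.5 to 32 and 21.5 to 60.5 counts per library, against 1820 to 4219 for Cd27.

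**Figure D1:**
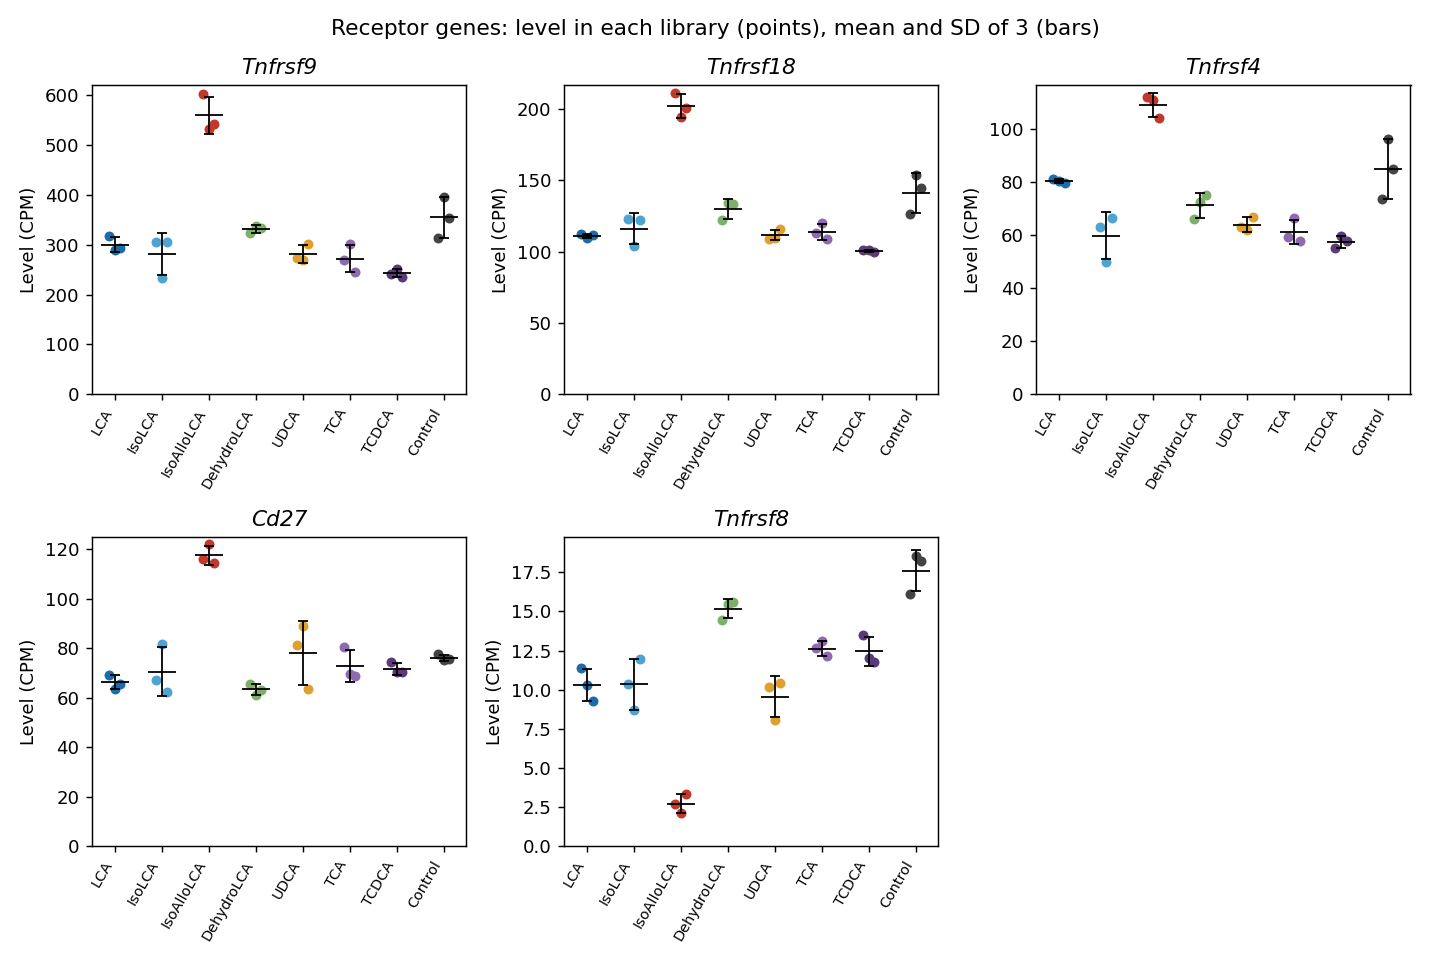
Level of the 5 receptor genes in each library, in CPM on a linear axis from 0, by group; points are libraries and black bars are the mean and SD of 3. IsoAlloLCA libraries are the highest for Tnfrsf4, Tnfrsf9, Tnfrsf18 and Cd27 and the lowest for Tnfrsf8, whose group means span 6.54-fold.

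The 5 receptor genes lie on chromosomes 4 and 6. Tnfrsf4 (chr4:156013695-156016589, plus strand) ends 9753 bases before the start of Tnfrsf18 (chr4:156026342-156028891, plus strand), and Tnfrsf9 (chr4:150927999-150946102, plus strand) and Tnfrsf8 (chr4:145268976-145315147, minus strand) lie on the same chromosome. Promoter windows of 250 bases before to 50 after the transcript start are printed for these 4 genes, since 3 of them rose together with IsoAlloLCA and the remaining gene fell in the same libraries. The windows are RefSeq's, on GRCm38.p6, 5′ to 3′ on the gene's strand: chr4:150927749-150928048 (plus) for Tnfrsf9, chr4:156026072-156026371 (plus) for Tnfrsf18, chr4:156013445-156013744 (plus) for Tnfrsf4 and chr4:145315115-145315414 (minus) for Tnfrsf8. Capitals mark matches to an NF-kB type motif (GGG and TTTCC with any 2 bases between them) or to TGANTCA (an AP-1 type motif), each searched on both strands.
Tnfrsf9: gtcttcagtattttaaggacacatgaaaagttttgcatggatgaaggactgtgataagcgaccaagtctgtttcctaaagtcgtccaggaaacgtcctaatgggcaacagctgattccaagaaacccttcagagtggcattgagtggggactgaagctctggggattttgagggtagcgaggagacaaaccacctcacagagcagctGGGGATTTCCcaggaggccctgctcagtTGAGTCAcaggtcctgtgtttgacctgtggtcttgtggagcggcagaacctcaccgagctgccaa
Tnfrsf18: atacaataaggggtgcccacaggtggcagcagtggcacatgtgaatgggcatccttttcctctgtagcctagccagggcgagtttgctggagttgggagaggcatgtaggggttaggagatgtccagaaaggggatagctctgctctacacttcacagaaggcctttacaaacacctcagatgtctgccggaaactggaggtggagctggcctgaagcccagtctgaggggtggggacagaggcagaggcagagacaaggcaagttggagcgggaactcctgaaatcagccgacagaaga
Tnfrsf4: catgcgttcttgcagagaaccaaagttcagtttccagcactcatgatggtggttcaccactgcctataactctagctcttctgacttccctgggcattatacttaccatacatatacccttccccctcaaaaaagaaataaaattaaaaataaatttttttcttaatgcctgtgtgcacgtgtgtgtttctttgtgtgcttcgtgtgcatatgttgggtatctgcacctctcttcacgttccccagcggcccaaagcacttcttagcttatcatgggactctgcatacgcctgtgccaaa
Tnfrsf8: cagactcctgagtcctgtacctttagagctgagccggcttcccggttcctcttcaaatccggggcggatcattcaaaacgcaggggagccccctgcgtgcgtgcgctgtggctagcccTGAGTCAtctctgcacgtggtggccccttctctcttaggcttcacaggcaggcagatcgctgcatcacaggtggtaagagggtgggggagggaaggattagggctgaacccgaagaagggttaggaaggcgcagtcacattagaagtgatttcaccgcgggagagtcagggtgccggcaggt
The Tnfrsf9 window held GGGGATTTCC with its first base at -43 from the start and TGAGTCA at -15. Tnfrsf8, the receptor gene that fell, held TGAGTCA at -132, and the windows of Tnfrsf18 and Tnfrsf4 held neither motif in these letters. Of 32851 windows of the same length in the table, 1.63% held the NF-kB type motif and 7.81% the AP-1 type motif, so both are uncommon by letters alone. The E-box CANNTG occurred in 72.3% of windows and in each of the 4 printed here, and is not capitalised. The transcripts of the count table started 20 bases downstream of the RefSeq start for Tnfrsf18 and 17 bases downstream for Tnfrsf8. RefSeq windows were found for 8 of the 10 genes, Tnfrsf9 having a further window with neither motif. Among the others, Tnfsf14 held TGAGTCA at -160, and Cd27, Tnfsf8 and Tnfsf11 held neither. A match in letters does not show a bound site.

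Tnfrsf8, which encodes CD30, moved against the other receptor genes. It had 2.66, 2.11 and 3.31 CPM in the IsoAlloLCA libraries, against 16.1, 18.5 and 18.2 CPM in the control libraries. The highest IsoAlloLCA library was far below the lowest control library, and the log2 fold change was -2.73 ± 0.13 (95% confidence interval -3.00 to -2.46, adjusted p = 1.37e-14). Only 0.475% of tested genes had a wider range of group means over the 8 groups than Tnfrsf8. Per kilobase of the annotated exons, Tnfrsf8 stood at 1.73 CPM per kb in IsoAlloLCA cells and 11.3 CPM per kb in control cells, below the other receptor genes in both. On the same scale Tnfrsf9 stood at 266 CPM per kb in IsoAlloLCA cells and 168 CPM per kb in control cells, the highest of the 10 genes in both groups.

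Among the ligand genes, Tnfsf4, which encodes OX40L, changed most. It had 21.9, 22.9 and 20.6 CPM in the IsoAlloLCA libraries, against 3.19, 2.88 and 3.26 CPM in the control libraries. The 21 libraries outside the IsoAlloLCA group all lay between 2.27 and 4.59 CPM, so the 3 IsoAlloLCA libraries stood apart from every other library. The log2 fold change was 2.81 ± 0.11 (95% confidence interval 2.59 to 3.03, adjusted p = 1.28e-16), and 0.215% of tested genes had a wider range of group means. Tnfsf4 lies on chr1:161395438-161418206 (plus strand).

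Tnfsf8, the gene of CD30 ligand on chr4:63832824-63861284 (minus strand), had 52.9, 53.9 and 54.5 CPM in the IsoAlloLCA libraries, against 31.2, 28.9 and 32.4 CPM in the control libraries. It rose by 0.80 ± 0.05 on the log2 scale (adjusted p = 2.17e-12), with no overlap between the groups. Ligand and receptor of the CD30 axis thus moved in opposite directions in the same libraries. Tnfsf14, the gene of LIGHT, had 4.02, 3.67 and 4.39 CPM in the IsoAlloLCA libraries, against 3.13, 3.78 and 3.98 CPM in the control libraries. The groups overlapped, and the 95% confidence interval of its log2 fold change, -0.17 to 0.46, leaves room for a change of either sign (adjusted p = 0.445). Tnfsf11, the gene of RANKL, had 11.8, 9.29 and 9.15 CPM in the IsoAlloLCA libraries, against 10.4, 9.45 and 10.6 CPM in the control libraries. Its log2 fold change was -0.01 ± 0.11 (95% confidence interval -0.23 to 0.21, adjusted p = 0.95).

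Cd70, whose product is the ligand of CD27, was near the limit of detection. It had 3, 1 and 3 deposited counts in the IsoAlloLCA libraries, against 1, 1 and 0 in the control libraries, and 14 counts in all 24 libraries together. No library exceeded 3 counts, the level that a count of 0 allows, which corresponds to 0.0731 to 0.115 CPM depending on the library. A difference in Cd70 was therefore not detectable at this depth. Cd70 and Tnfsf14 lie near each other on chromosome 17, at chr17:57145997-57149777 and chr17:57189474-57194181 (both minus strand), with 39697 bases between them.

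**Figure D2:**
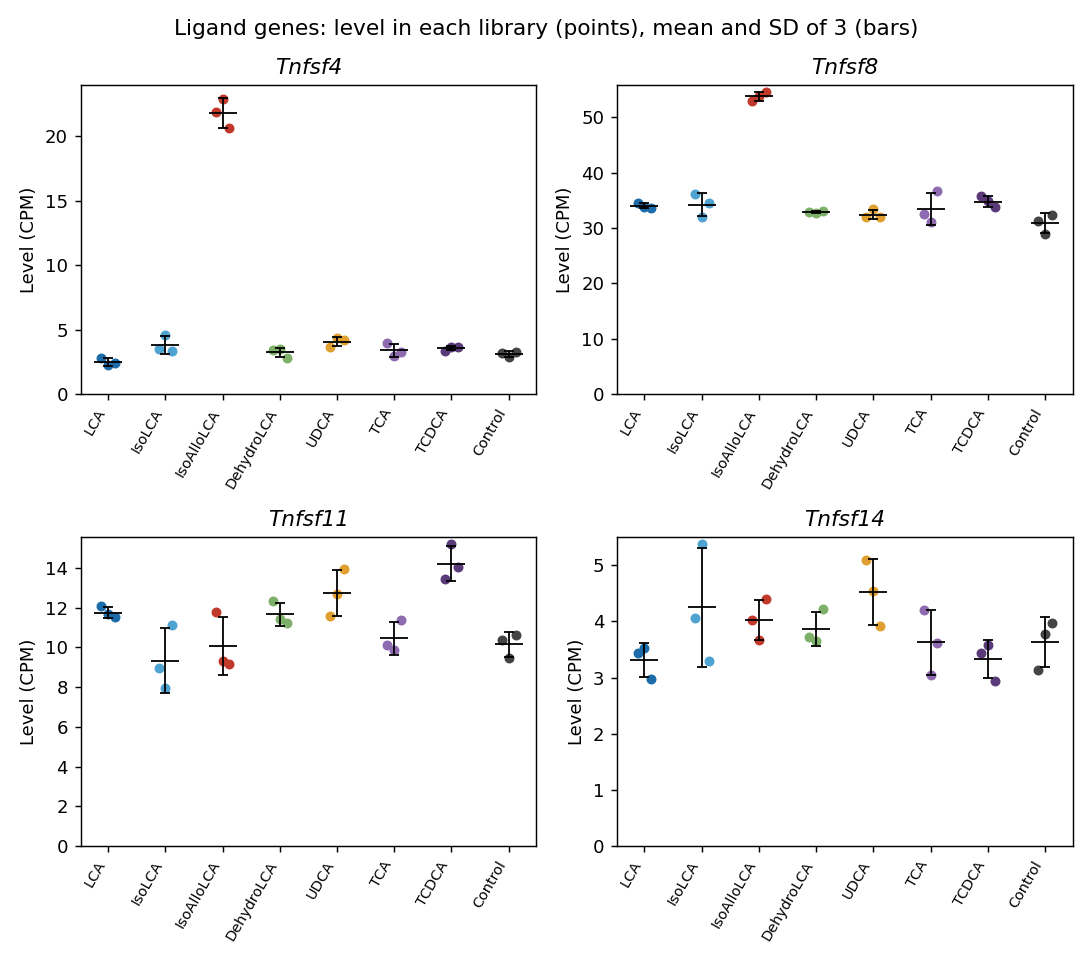
Level of the tested ligand genes in each library, in CPM on a linear axis from 0, by group; points are libraries and black bars are the mean and SD of 3. The 3 IsoAlloLCA libraries stand apart for Tnfsf4 (20.6 to 22.9 CPM) and Tnfsf8 (52.9 to 54.5 CPM), and the groups overlap for Tnfsf14.

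Levels per kilobase allow ligand and receptor genes to be set against each other within a library. The ratio of Tnfsf4 to Tnfrsf4 was 0.143 ± 0.00408 in IsoAlloLCA cells and 0.0266 ± 0.00481 in control cells (SD, n = 3 each), with all IsoAlloLCA libraries at 0.139 to 0.147 and all control libraries at 0.0214 to 0.0309. The ligand transcript was the scarcer of the pair in every group. For CD30, the ratio of Tnfsf8 to Tnfrsf8 was 14.5 ± 3.22 in IsoAlloLCA cells and 1.23 ± 0.133 in control cells, the other acids lying between 1.52 for DehydroLCA and 2.42 for UDCA. By contrast, the ratio of Tnfsf9 (the ligand of 4-1BB) to Tnfrsf9 was 0.0225 in IsoAlloLCA cells and 0.0256 in control cells, within the range of 0.0195 to 0.0280 over all groups. These ratios are of transcripts, and are descriptions without a test of their own.

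**Figure D3:**
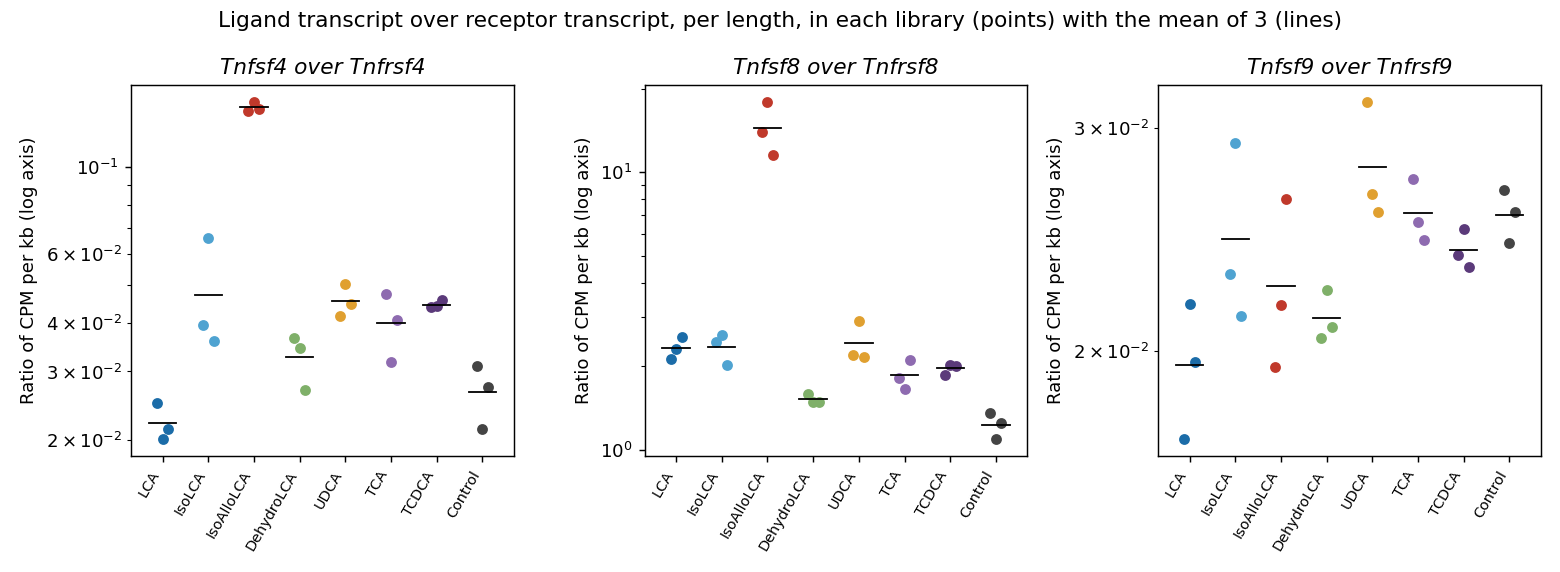
Ratio of ligand to receptor transcript per library for 3 ligand and receptor pairs, both in CPM per kilobase, on a log axis by group; points are libraries and lines are means of 3. The IsoAlloLCA libraries are the highest for Tnfsf4 over Tnfrsf4 (0.139 to 0.147) and for Tnfsf8 over Tnfrsf8 (11.5 to 17.9), and lie among the other groups for Tnfsf9 over Tnfrsf9.

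Several measures outside these genes moved with the IsoAlloLCA group. The share of reads in exons was 78.3% ± 2.78 in IsoAlloLCA libraries and 82.6% ± 1.37 in control libraries (SD, n = 3 each). A list of 12 dendritic cell and macrophage markers summed to 5.96 to 8.54 CPM in IsoAlloLCA libraries, against 2.96 to 3.75 CPM in control libraries. Most of that sum was Cd68, at 5.42 CPM in IsoAlloLCA cells and 2.51 CPM in control cells, whereas Clec9a was at 0 in both groups. B cell markers summed to 4.08 to 5.08 CPM in IsoAlloLCA libraries, against 5.89 to 6.38 CPM in control libraries, with Pax5 at 0 in both. Natural killer cell markers summed to 14.9 to 17.3 CPM in IsoAlloLCA libraries, against 26.3 to 27.6 CPM in control libraries. Nearly all of that sum was Eomes, which CD8+ T cells also express, at 14.6 CPM in IsoAlloLCA cells and 26.2 CPM in control cells. The other listed genes lay the other way: Klrb1c was 1.03 CPM in IsoAlloLCA cells and 0.494 CPM in control cells and rose by 1.07 ± 0.26 on the log2 scale (adjusted p = 0.000999), and Ncr1, which did not pass the test, was 0.400 CPM in IsoAlloLCA cells and 0.248 CPM in control cells. Of the regulatory T cell markers, Foxp3 was 10.3 CPM in IsoAlloLCA cells and 8.74 CPM in control cells, and Ikzf2 was 48.9 CPM in IsoAlloLCA cells and 14.96 CPM in control cells. Il2ra, the remaining gene of that list, fell to 1774 CPM in IsoAlloLCA cells, against 2307 CPM in control cells (log2 fold change -0.38 ± 0.08, adjusted p = 0.000122). Of the 8 CD8 T cell markers, 4 rose, 1 fell and 3 did not pass, where 58.4% of all tested genes were called. Cd3g rose by 0.56 ± 0.05 on the log2 scale (adjusted p = 1.52e-10), Cd3d by 0.58 ± 0.05 (4.28e-10) and Cd3e by 0.30 ± 0.05 (5.61e-06). Lck fell, with a log2 fold change of -0.21 ± 0.04 (adjusted p = 0.000175). The part of these differences in the costimulatory genes was not tested.

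With the other 6 acids, no receptor gene rose. Tnfrsf8, Tnfrsf18 and Tnfrsf9 fell with LCA, IsoLCA, UDCA, TCA and TCDCA, and Tnfrsf4 fell with the same acids except LCA. Cd27 was not called with any of the 6. These comparisons share the 3 control libraries, so their directions are not independent of each other. Control replicate 2 was the highest of the controls for Tnfrsf4, Tnfrsf8, Tnfrsf9 and Tnfrsf18, and the calls that depended on it are given with each acid.

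LCA, a secondary bile acid, gave 1 gene that rose and 3 that fell of the 9 tested, where 36.5% of all tested genes were called (17.7% higher and 18.8% lower). The median log2 fold change of the 9 genes was -0.20, against 0.01 over all tested genes. Tnfrsf8 had 11.4, 10.3 and 9.29 CPM in the LCA libraries, below all control libraries at 16.1 to 18.5 CPM, and fell by 0.77 ± 0.11 on the log2 scale (adjusted p = 3.29e-06). Tnfrsf18 had 112, 109 and 111 CPM in the LCA libraries, below all control libraries at 126 to 154 CPM, and fell by 0.35 ± 0.06 (adjusted p = 6.69e-05). Tnfrsf9 fell by 0.24 ± 0.08 (adjusted p = 0.0296) although the libraries of the groups overlapped, and Tnfsf8 rose by 0.14 ± 0.05 (adjusted p = 0.0391). The calls of Tnfrsf9 and Tnfsf8 were not stable: without LCA replicate 2, LCA replicate 3 or control replicate 2 only 2 of the 9 genes were called. Without control replicate 2 the log2 fold changes were -0.15 for Tnfrsf9 (adjusted p = 0.206) and 0.10 for Tnfsf8 (adjusted p = 0.213), and with library totals in place of TMM factors Tnfrsf9 had an adjusted p of 0.0535. Tnfrsf9 also lost its call without control replicate 3 (adjusted p = 0.0549), and Tnfsf8 without LCA replicate 1 (0.109) or control replicate 1 (0.0755), by DESeq2 (0.065) and with no low-count filter (0.0668).

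IsoLCA, which differs from LCA in the orientation of the hydroxyl at carbon 3, gave 4 receptor genes that fell and none that rose, where 6.12% of all tested genes fell and 3.73% rose. Tnfrsf4 had 63.1, 49.9 and 66.6 CPM in the IsoLCA libraries, below all control libraries at 73.7 to 96.2 CPM, and fell by 0.50 ± 0.08 on the log2 scale (adjusted p = 0.000129). IsoLCA replicate 2 was the lowest library of its group for the 4 genes. Tnfrsf8 fell by 0.76 ± 0.11 (adjusted p = 1.36e-05), Tnfrsf18 by 0.28 ± 0.06 (adjusted p = 0.0023) and Tnfrsf9 by 0.33 ± 0.08 (adjusted p = 0.0106), each with no overlap between the groups. The Tnfrsf9 difference was -0.22 without IsoLCA replicate 2 (adjusted p = 0.0813) and -0.25 without control replicate 2 (adjusted p = 0.114). In either direction 9.84% of all tested genes were called, and the median log2 fold change was -0.11 for the 9 genes and 0.01 for all tested genes.

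UDCA, which carries a further hydroxyl at carbon 7, gave 2 ligand genes that rose and 4 receptor genes that fell, where 9.18% of tested genes rose and 10.7% fell (19.9% in all). The receptor genes were Tnfrsf4, Tnfrsf8, Tnfrsf9 and Tnfrsf18, and the median log2 fold change was 0.04 for the 9 genes and 0.01 for all tested genes. Tnfrsf8 had 10.2, 8.05 and 10.4 CPM in the UDCA libraries, below all control libraries at 16.1 to 18.5 CPM, and fell by 0.89 ± 0.11 on the log2 scale (adjusted p = 1.79e-06). Tnfrsf4 fell by 0.41 ± 0.08 (adjusted p = 0.00097), Tnfrsf18 by 0.34 ± 0.06 (adjusted p = 0.000222) and Tnfrsf9 by 0.34 ± 0.09 (adjusted p = 0.00637). Tnfsf4 had 3.69, 4.36 and 4.20 CPM in the UDCA libraries, against 3.19, 2.88 and 3.26 CPM in the control libraries, and rose by 0.39 ± 0.13 (adjusted p = 0.0335). Tnfsf11 had 11.6, 12.7 and 13.9 CPM in the UDCA libraries, against 10.4, 9.45 and 10.6 CPM in the control libraries, and rose by 0.33 ± 0.10 (adjusted p = 0.026). Without control replicate 2 the calls numbered 3 in place of 6, with adjusted p = 0.131 for Tnfsf4, 0.119 for Tnfsf11 and 0.0689 for Tnfrsf9. Both ligand calls were also lost without control replicate 1 (0.0646 and 0.0526), UDCA replicate 2 (0.14 and 0.0699) or UDCA replicate 3 (0.0903 and 0.134), and that of Tnfsf4 without control replicate 3 (0.0544).

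TCDCA gave 2 ligand genes that rose and 4 receptor genes that fell, where 5.08% of tested genes rose and 8.04% fell (13.1% in all). The median log2 fold change was -0.13 for the 9 genes and 0.00 for all tested genes. Tnfrsf9 had 242, 251 and 235 CPM in the TCDCA libraries, below all control libraries at 314 to 396 CPM, and fell by 0.55 ± 0.09 on the log2 scale (adjusted p = 8.3e-05). Tnfrsf18 had 101, 101 and 99.8 CPM in the TCDCA libraries and fell by 0.49 ± 0.06 (adjusted p = 3.46e-06). Tnfrsf4 fell by 0.56 ± 0.08 (adjusted p = 3.93e-05) and Tnfrsf8 by 0.50 ± 0.10 (adjusted p = 0.00189). Tnfsf11 was the ligand gene that stood out in this group. It had 13.4, 15.2 and 14.04 CPM in the TCDCA libraries, above all control libraries at 9.45 to 10.6 CPM, and rose by 0.49 ± 0.10 (adjusted p = 0.00182). Tnfsf8 rose by 0.17 ± 0.05 (adjusted p = 0.0313), a call lost without control replicate 1 (adjusted p = 0.0622), control replicate 2 (0.196), TCDCA replicate 1 (0.138) or TCDCA replicate 2 (0.0869).

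TCA gave 4 receptor genes that fell and none that rose, although only 0.437% of all tested genes were called, 0.353% as lower and 0.0843% as higher. The median of the 9 log2 fold changes was -0.06, against 0.00 over all tested genes. Tnfrsf4 had 59.4, 66.5 and 57.7 CPM in the TCA libraries, below all control libraries at 73.7 to 96.2 CPM, and fell by 0.47 ± 0.08 on the log2 scale (adjusted p = 0.00827). Tnfrsf18 fell by 0.31 ± 0.06 (adjusted p = 0.0177), Tnfrsf8 by 0.48 ± 0.11 (adjusted p = 0.039) and Tnfrsf9 by 0.38 ± 0.09 (adjusted p = 0.041), each with no overlap between the groups. None of the 9 genes was called without control replicate 2, TCA replicate 1 or TCA replicate 3, and 1 was called without control replicate 3. Without control replicate 2 the adjusted p was 0.13 for Tnfrsf4, 0.236 for Tnfrsf8, 0.368 for Tnfrsf9 and 0.2 for Tnfrsf18, with log2 fold changes of -0.38, -0.45, -0.30 and -0.25. Tnfrsf8 was also not called without TCA replicate 2 (adjusted p = 0.0567).

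DehydroLCA gave no called gene among the 9 by edgeR, where 5.83% of tested genes were called (2.41% higher and 3.41% lower). At an unadjusted p under 0.05 there were 3 of the 9, and the share of all tested genes at that threshold was not counted. DESeq2 called 2, Tnfrsf4 (adjusted p = 0.0391) and Cd27 (adjusted p = 0.0402), both lower, and 783 over all genes. Tnfrsf8 had 14.5, 15.5 and 15.6 CPM in the DehydroLCA libraries, against 16.1, 18.5 and 18.2 CPM in the control libraries. Those groups did not overlap, but the log2 fold change was -0.22 ± 0.10 with an adjusted p of 0.248. For Tnfrsf4 the log2 fold change was -0.25 ± 0.08 (adjusted p = 0.0704), and for Tnfrsf9 -0.10 ± 0.08 (adjusted p = 0.603). Without control replicate 1 there were 2 calls, Tnfrsf4 (adjusted p = 0.00964) and Tnfrsf18 (adjusted p = 0.0368).

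**Figure D4:**
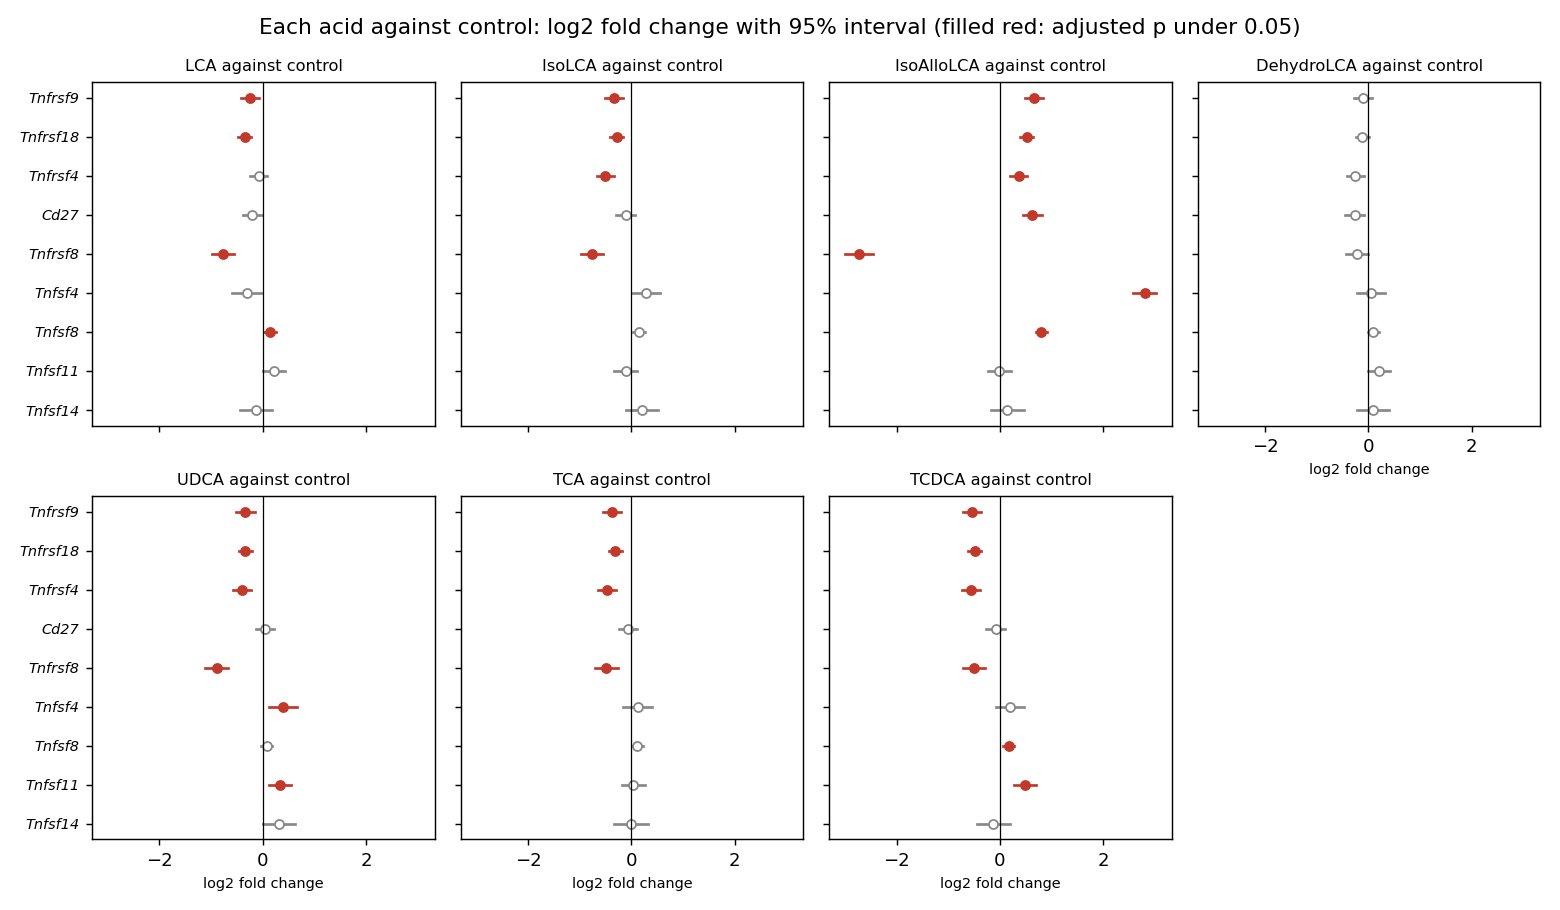
Log2 fold change against control of the 9 tested genes for each bile acid, with 95% confidence intervals; filled points passed an adjusted p of 0.05. IsoAlloLCA has positive values for Tnfsf4 (2.81) and 4 receptor genes and a negative value for Tnfrsf8 (-2.73), and for the other acids the called receptor genes all have negative values.

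The acids of the 50 µM dose include close structural relatives, which were compared with each other directly in 6 pairs, and TCA with TCDCA at 100 µM in a further pair. IsoAlloLCA and IsoLCA differ in the orientation of the hydrogen at carbon 5. With that change alone, 6 genes were higher in IsoAlloLCA cells and 1 was lower, where 59.8% of tested genes differed (31.7% higher and 28.1% lower). Tnfsf4 was higher by 2.53 ± 0.10 on the log2 scale (adjusted p = 9.29e-16), Tnfrsf9 by 0.99 ± 0.09 (adjusted p = 3.77e-10) and Tnfrsf4 by 0.87 ± 0.08 (adjusted p = 2.04e-09). Tnfrsf18, Cd27 and Tnfsf8 were higher by 0.80 ± 0.06, 0.74 ± 0.09 and 0.65 ± 0.05. Tnfrsf8 was lower in IsoAlloLCA cells, with a log2 difference of -1.97 ± 0.14 (adjusted p = 1.29e-11). For Tnfsf14 the 95% confidence interval of the difference was -0.38 to 0.24, and for Tnfsf11 it was -0.11 to 0.32. Tnfsf11 passed the test without IsoLCA replicate 3 (log2 difference 0.25, adjusted p = 0.0449).

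IsoAlloLCA and LCA differ at both carbon 3 and carbon 5. The same 7 genes differed in the same directions, with 6 higher and 1 lower in IsoAlloLCA cells and 61.4% of all tested genes called (32.3% higher and 29.1% lower). Tnfsf4 was higher by 3.12 ± 0.11 on the log2 scale (adjusted p = 2.73e-17), the largest difference of any of these genes in the 14 comparisons. Tnfrsf4 was higher by 0.44 ± 0.08 (adjusted p = 3.91e-05). Tnfrsf8 differed by -1.96 ± 0.14 (adjusted p = 7.44e-12), close to its difference from IsoLCA, which shares the same IsoAlloLCA libraries. Tnfsf11 passed the test without IsoAlloLCA replicate 1 (log2 difference -0.35, adjusted p = 0.0063).

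IsoLCA and LCA differ only at carbon 3. Of the 9 genes, 1 was higher and 2 were lower in IsoLCA cells, where 30.3% of all tested genes differed (15.8% higher and 14.6% lower). Tnfsf4 had 3.49, 4.59 and 3.35 CPM in the IsoLCA libraries, against 2.83, 2.27 and 2.39 CPM in the LCA libraries, a log2 difference of 0.60 ± 0.13 (adjusted p = 0.00125). Tnfrsf4 had 63.1, 49.9 and 66.6 CPM in the IsoLCA libraries, against 81.2, 80.5 and 79.8 CPM in the LCA libraries, a log2 difference of -0.42 ± 0.08 (adjusted p = 4e-04). So the gene of OX40 was lower and that of its ligand higher with IsoLCA than with LCA. Tnfsf11 was lower by 0.32 ± 0.10 (log2, adjusted p = 0.018), a call lost without LCA replicate 1 (0.0509), IsoLCA replicate 1 (0.0739) or IsoLCA replicate 2 (0.109). No difference was called for Tnfrsf8, with a 95% confidence interval of -0.22 to 0.23, for Tnfrsf9, with -0.27 to 0.08, or for Tnfrsf18, with -0.06 to 0.19. Without IsoLCA replicate 3, Tnfsf14 passed the test (log2 difference 0.51, adjusted p = 0.0142).

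DehydroLCA has a ketone in place of the hydroxyl at carbon 3. Compared with LCA, 2 of the 9 genes were higher and none was lower, where 17.8% of all tested genes differed (10.3% higher and 7.49% lower). Tnfrsf8 had 14.5, 15.5 and 15.6 CPM in the DehydroLCA libraries, against 11.4, 10.3 and 9.29 CPM in the LCA libraries, a log2 difference of 0.55 ± 0.11 (adjusted p = 0.000747). Tnfrsf18 was higher by 0.23 ± 0.06 (adjusted p = 0.0106), a call lost without LCA replicate 2 (0.0549) or DehydroLCA replicate 2 (0.0563), which left 1 call. Tnfsf4 passed the test without LCA replicate 1 (0.0349) or DehydroLCA replicate 3 (0.0358). Compared with IsoLCA, Tnfrsf8 was higher in DehydroLCA cells by 0.55 ± 0.11 (95% confidence interval 0.33 to 0.77, adjusted p = 0.0055), the only call of the 9 where 1.67% of tested genes differed (1.2% higher and 0.475% lower). Tnfsf11 was called too without IsoLCA replicate 3 (log2 difference 0.46, adjusted p = 0.0199). The ketone form thus had more Tnfrsf8 than either hydroxyl form.

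UDCA and LCA differ by the hydroxyl at carbon 7. Of the 9 genes, 3 were higher and 1 was lower in UDCA cells, where 26.9% of all tested genes differed (14.8% higher and 12% lower). Tnfsf4 was higher by 0.71 ± 0.13 on the log2 scale (adjusted p = 0.000246), with 3.69 to 4.36 CPM in the UDCA libraries and 2.27 to 2.83 CPM in the LCA libraries. Tnfrsf4 was lower, with 63.3, 61.8 and 67.1 CPM in the UDCA libraries, against 81.2, 80.5 and 79.8 CPM in the LCA libraries, a log2 difference of -0.33 ± 0.08 (adjusted p = 0.00403). Tnfsf14 was higher by 0.45 ± 0.15 (adjusted p = 0.0287), its only call in the 14 comparisons. It was lost without LCA replicate 3 (0.12), UDCA replicate 1 (0.143) or UDCA replicate 2 (0.0774). Cd27 was higher by 0.24 ± 0.09 (adjusted p = 0.0429) although its libraries overlapped. Its difference was 0.13 without UDCA replicate 2 (adjusted p = 0.338) and 0.36 without UDCA replicate 3, and its call was also lost without UDCA replicate 1 (0.138), LCA replicate 2 (0.142) or LCA replicate 3 (0.105) and with library totals in place of TMM factors (0.0866). Without LCA replicate 3, UDCA replicate 1 or UDCA replicate 2 the calls numbered 2 in place of 4. Tnfrsf8 and Tnfrsf18 were not called, with 95% confidence intervals of -0.35 to 0.12 and -0.12 to 0.13.

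TCA carries a hydroxyl at carbon 12 that TCDCA lacks. Of the 9 genes, 1 was lower in TCA cells and none was higher, where 3.61% of all tested genes differed (2.65% higher and 0.958% lower). Tnfsf11 had 10.1, 9.86 and 11.4 CPM in the TCA libraries, against 13.4, 15.2 and 14.04 CPM in the TCDCA libraries, a log2 difference of -0.44 ± 0.10 (95% confidence interval -0.65 to -0.24, adjusted p = 0.0111). The groups did not overlap, but the call was lost without TCA replicate 1 (0.0739), TCA replicate 2 (0.0772) or TCDCA replicate 2 (0.0815). The receptor genes were not called between the conjugates, with 95% confidence intervals of 0.05 to 0.31 for Tnfrsf18 (adjusted p = 0.11), -0.01 to 0.34 for Tnfrsf9, -0.09 to 0.26 for Tnfrsf4 and -0.20 to 0.24 for Tnfrsf8. Conjugated and unconjugated acids were given at different doses and were not compared with each other.

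**Figure D5:**
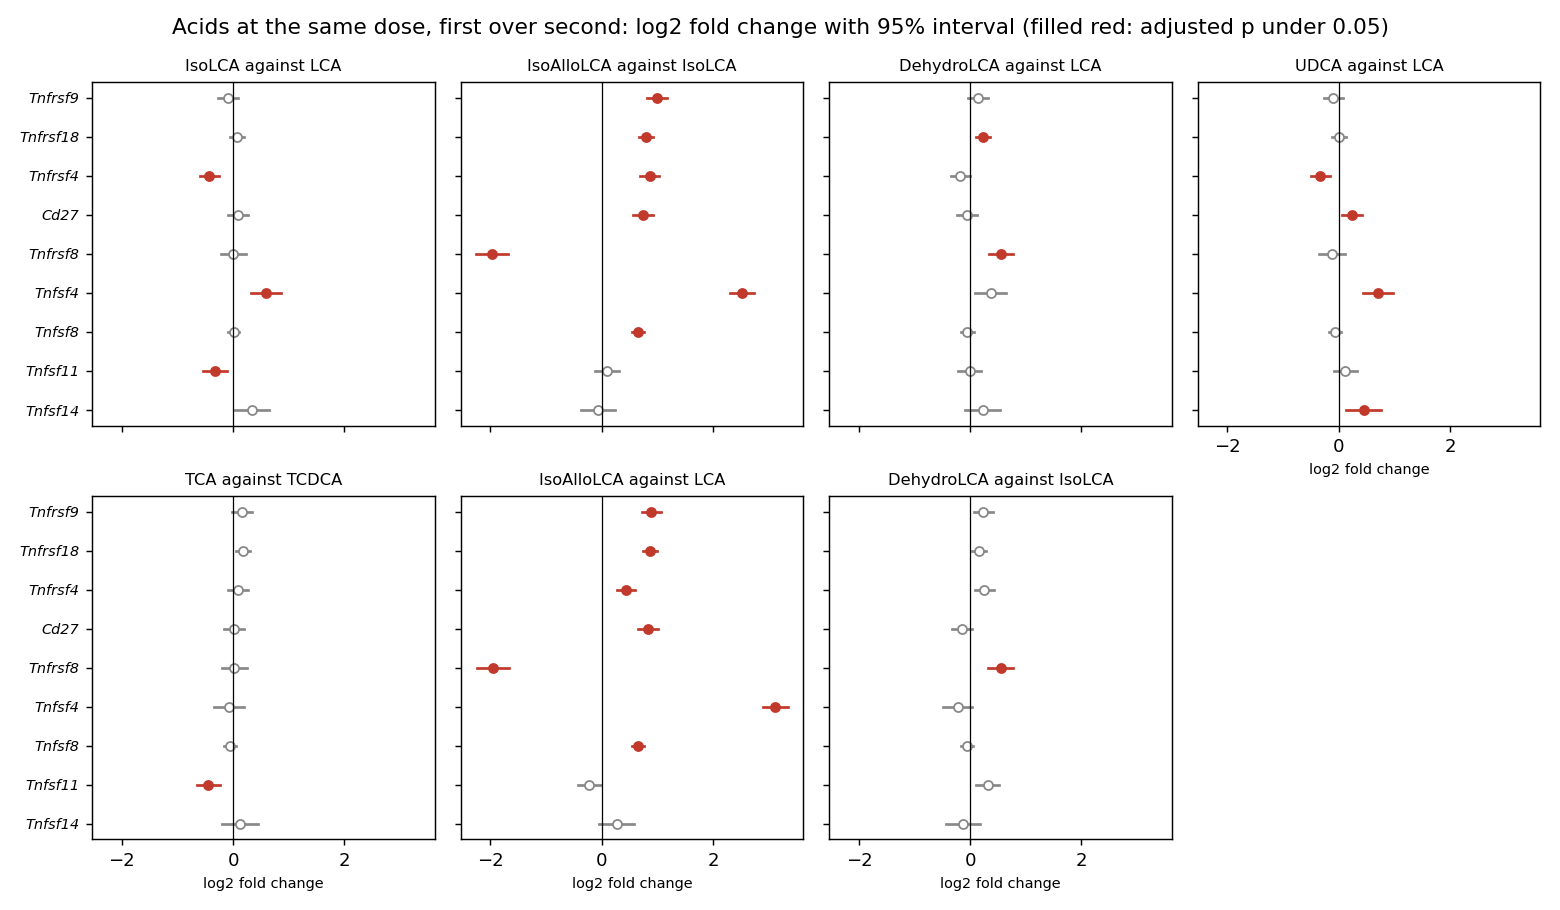
Log2 difference of the 9 tested genes between structurally related bile acids, first named over second, with 95% confidence intervals; filled points passed an adjusted p of 0.05. The comparisons with IsoAlloLCA reach 3.12 for Tnfsf4 and -1.97 for Tnfrsf8, whereas the other pairs stay within 1 on the log2 scale.

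The genes differed in how far their levels spread over the 8 groups. The highest group mean exceeded the lowest 8.74-fold for Tnfsf4 and 6.54-fold for Tnfrsf8, 2.30-fold for Tnfrsf9, 2.01-fold for Tnfrsf18, 1.90-fold for Tnfrsf4, 1.86-fold for Cd27 and 1.74-fold for Tnfsf8. Tnfsf11 spanned 1.52-fold and Tnfsf14 1.36-fold. The median range was 0.92 on the log2 scale for the 9 genes, against 0.40 for all tested genes. For Tnfsf4 the order of group means, low to high, was LCA, control, DehydroLCA, TCA, TCDCA, IsoLCA, UDCA and IsoAlloLCA. Its libraries did not overlap between LCA and control or between IsoAlloLCA and UDCA, and overlapped between all other neighbours. LCA cells thus had the lowest Tnfsf4 mean, 2.49 ± 0.294 CPM, against 3.11 ± 0.201 CPM in control cells (SD, n = 3 each), a difference that missed the threshold (adjusted p = 0.0726) except without LCA replicate 1 (adjusted p = 0.0349).

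For Tnfrsf8 the order of mean CPM, low to high, was IsoAlloLCA (2.69), UDCA (9.54), LCA (10.3), IsoLCA (10.3), TCDCA (12.4), TCA (12.6), DehydroLCA (15.2) and control (17.6). Its libraries did not overlap between IsoAlloLCA and UDCA, DehydroLCA and TCA, or DehydroLCA and control. For Tnfrsf9, Tnfrsf18 and Tnfrsf4 the order began with IsoAlloLCA and control and ended with TCDCA, at 243 ± 7.87, 101 ± 0.778 and 57.5 ± 2.29 CPM. Within this order IsoAlloLCA and control did not overlap for any of the 3 genes. DehydroLCA and LCA did not overlap for Tnfrsf9, LCA and TCDCA for Tnfrsf18, and LCA and DehydroLCA for Tnfrsf4. For Cd27, IsoAlloLCA at 118 ± 3.97 CPM was separate from UDCA at 78.0 ± 13.01 CPM, and no other neighbours were. Likewise for Tnfsf8, IsoAlloLCA at 53.8 ± 0.794 CPM was separate from TCDCA at 34.8 ± 1.05 CPM, and the order below had no gap. For Tnfsf11 and Tnfsf14 every neighbour in the order overlapped, Tnfsf11 running from TCDCA (14.2 CPM) to IsoLCA (9.33 CPM) and Tnfsf14 from UDCA (4.52 CPM) to LCA (3.31 CPM).

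Other genes with the most similar pattern were sought for the 4 genes with the widest range, by Pearson's r of log2 CPM over the 24 libraries among 8875 genes reaching 10 CPM in a group. Tnfsf4 was most like Eif2ak3 (r = 0.979), Ctla2a (0.978) and Ugcg (0.976). Over the 21 libraries without IsoAlloLCA these values were 0.644, 0.727 and 0.638, so much of the likeness came from the IsoAlloLCA libraries. Tnfrsf8 was most like Ptpn7 (0.952), Mybl2 (0.949) and Chaf1a (0.948), with 0.642, 0.603 and 0.627 without IsoAlloLCA. Tnfrsf9 was most like Cd53 (0.945), Sap30 (0.938) and Sdf4 (0.934), with 0.785, 0.827 and 0.742 without IsoAlloLCA. Tnfrsf18 was most like Sap30 (0.960), Cd53 (0.956) and the inhibitory receptor gene Ctla4 (0.946), with 0.899, 0.830 and 0.844 without IsoAlloLCA. All these values are descriptions over libraries that share groups and controls.

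Binding partners of the 10 genes that are not among them were counted as well. Of 6 in the table, 4 could be tested. Tnfsf9, the gene of 4-1BB ligand, was 7.29 ± 0.903 CPM in IsoAlloLCA cells and 5.27 ± 0.359 CPM in control cells (SD, n = 3 each), and rose by 0.46 ± 0.10 on the log2 scale (adjusted p = 0.000354). With LCA it was 3.39 ± 0.264 CPM and with TCDCA 3.40 ± 0.231 CPM, against 5.27 ± 0.359 CPM in control cells, and it fell by 0.64 ± 0.11 with LCA (adjusted p = 5.64e-05) and by 0.63 ± 0.11 with TCDCA (adjusted p = 0.000308). It fell also with IsoLCA, by 0.42 ± 0.11 (adjusted p = 0.0109), and with DehydroLCA, by 0.36 ± 0.11 (adjusted p = 0.0442). Ligand and receptor gene of the 4-1BB axis were therefore both called higher with IsoAlloLCA and both called lower with LCA, IsoLCA and TCDCA than in control cells. The Tnfrsf9 calls with LCA and IsoLCA were not stable, being lost without control replicate 2 (adjusted p = 0.206 and 0.114) among other fits. Tnfrsf14, which encodes the LIGHT receptor HVEM, was 10.7 CPM in IsoAlloLCA cells and 8.99 CPM in control cells, and rose by 0.25 ± 0.08 (adjusted p = 0.0156).

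Among the other members of the superfamily, IsoAlloLCA changed 5 of 7 tested ligand genes (2 rose and 3 fell) and 9 of 15 tested receptor genes (5 rose and 4 fell), with a median log2 fold change of -0.26 for the ligands and 0.04 for the receptors. The ligand genes that rose were Ltb (0.54 ± 0.04) and Fasl (0.32 ± 0.05), and those that fell included Tnfsf10, the TRAIL gene (-0.58 ± 0.08), and Tnf (-0.26 ± 0.07). Of the receptors, the death receptor genes Fas (1.45 ± 0.08) and Tnfrsf10b (1.10 ± 0.07) rose and Tnfrsf1b, the gene of the second TNF receptor, fell (-0.52 ± 0.05). Among 19 adapter and proximal signalling genes 10 rose, 5 fell and 4 did not pass, with a median of 0.16. They included Traf1, an NF-kB target and adapter of 4-1BB, at 158 ± 25.6 CPM in IsoAlloLCA cells and 71.2 ± 2.92 CPM in control cells (SD, n = 3 each; log2 fold change 1.15 ± 0.08), and the ubiquitin ligase genes Birc3 (0.87 ± 0.05) and Birc2 (0.69 ± 0.07). In the immunoglobulin family of costimulatory genes 10 of 18 rose and 3 fell, with a median of 0.22, among them Cd28 (0.89 ± 0.08). All 4 lists stand against the 58.4% of all tested genes called with this acid.

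LCA changed 3 of 7 other ligand genes, all rising, and 8 of 15 other receptor genes (2 rose and 6 fell), where 36.5% of all genes were called. Tnf rose by 0.35 on the log2 scale and Lta by 0.33. With TCDCA 4 of the 7 ligand genes rose, where 5.08% of all tested genes rose. Among them, Tnf rose by 0.52, Fasl by 0.44 and Tnfsf10 by 0.37 on the log2 scale, while Ltb fell, with a log2 fold change of -0.17. Of the 7 ligand genes, 3 rose with IsoLCA (3.73% of all tested genes), 2 with DehydroLCA (2.41%) and 3 with UDCA (9.18%). DESeq2 called 2 of the 7 with UDCA, where it called 2410 over all genes, and 2 with LCA, where it called 4342. With TCA edgeR called none of the 7 ligand genes, 15 receptor genes or 19 adapter genes, where 0.437% of all tested genes were called. DESeq2 called none of them either (0 in each list), where it called 101 over all genes. At an unadjusted p under 0.05 there were 1, 0 and 0 genes in these lists, and the share of all tested genes at that threshold was not counted.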

How the data were processed

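RNA of mouse CD8+ T cells was sequenced after an ultra-low-input cDNA library preparation, per the labels' protocols. The deposited table holds expected counts per gene made by the authors: per the file headers, HOMER's analyzeRepeats.pl counted reads in exons of mm10 genes, condensed to 1 transcript per gene and without normalization. The submitters' processing notes also name STAR and DESeq2, without versions or roles. Of the deposited values 29.43% were not whole, in steps of 0.5, so all were rounded to the nearest whole number, upward at 0.5. The count test planned for whole counts was kept for these rounded values. Counts in genes per library ranged from 25998051 to 41024340.5 (median 32852325).

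The 24 libraries were fitted together by group with edgeR 4.0.16 (R 4.3.3, limma 3.58.1; TMM factors 0.971 to 1.05, filterByExpr, quasi-likelihood test), which left 13044 of 24537 genes. The biological coefficient of variation was 4.41%. P-values were adjusted per comparison, with 14 comparisons in all, 7 against control and 7 between acids. Standard errors were the log2 fold change over the root of F. DESeq2 1.42.0, library totals, no low-count filter, a replicate block, only the 6 libraries compared, adjustment over all comparisons and leaving out each library were tried as alternatives. Levels per kilobase divide CPM by the transcript length in the table. The check of whether replicate numbers pair the libraries is given with the alternatives.

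Every one of the 10 genes is named, for other lists up to 4 genes with the smallest adjusted p per list and comparison are, and for similar patterns the 3 genes with the highest r. Markers were named for their role. The 10 genes, the lists and the tests were chosen with earlier results of these data known. Limits of detection from counts cover counting error only. Confidence intervals of fold changes and differences come from the quasi-likelihood fit and include the spread between these libraries, which may be technical. No variant or read-level data were used.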

Additional observations from a re-analysis of the deposited data

How the results depend on the processing

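Under 7 kinds of alternative (DESeq2, library totals in place of TMM factors, no low-count filter, a replicate block, a fit to only the 6 libraries compared, adjustment over all 14 comparisons together, and leaving out each library) no called gene changed sign. Tnfsf4, Tnfrsf4, Tnfrsf8, Tnfsf8, Tnfrsf9, Tnfrsf18 and Cd27 kept their calls against control with IsoAlloLCA under each. The number of the 9 genes called with DehydroLCA against control was 0, against 2 by DESeq2, 2 with no low-count filter, 1 with the replicate block, 2 with only the 6 libraries and 2 with adjustment over all 14 comparisons. Over all genes of each fit the calls were 760, against 783, 763, 891, 1031 and 1343 in the same order. TCA against control had 1 call in place of 4 with only the 6 libraries (14 in place of 57 over all genes). LCA against control had 3 in place of 4 with library totals, by DESeq2 and with adjustment over all 14. With only the 6 libraries LCA against control had 6. Over all genes it had 4765 calls, against 5093, 4342, 4387 and 4695 in that order. DehydroLCA against LCA had 4 in place of 2 with only the 6 libraries (3420 in place of 2317 over all genes). With adjustment over all 14 it had 3 (2557 over all genes). TCA against TCDCA had 2 in place of 1 with only the 6 libraries and with adjustment over all 14 comparisons. Over all genes it had 662 and 1117 in place of 471. DehydroLCA against IsoLCA had 2 in place of 1 with no low-count filter and 4 with adjustment over all 14. Over all genes it had 270 and 764 in place of 218. IsoLCA against control had 3 in place of 4 with only the 6 libraries and 5 with adjustment over all 14. Over all genes it had 888 and 1690 in place of 1284. UDCA against LCA had 3 in place of 4 with library totals (3651 in place of 3504 over all genes). IsoAlloLCA against LCA had 8 in place of 7 with no low-count filter (7939 in place of 8005 over all genes). The cause of these shifts was not tested.

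With each library left out in turn, the calls against control ranged over 2 to 4 for LCA, 3 to 4 for IsoLCA, 7 to 7 for IsoAlloLCA, 0 to 2 for DehydroLCA, 3 to 6 for UDCA, 0 to 4 for TCA and 5 to 6 for TCDCA. Between acids they ranged over 2 to 4 for IsoLCA against LCA, 7 to 8 for IsoAlloLCA against IsoLCA, 7 to 8 for IsoAlloLCA against LCA, 1 to 3 for DehydroLCA against LCA, 1 to 2 for DehydroLCA against IsoLCA, 2 to 4 for UDCA against LCA and 0 to 1 for TCA against TCDCA. A fit that left out a library estimated the spread from all remaining groups.

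Replicate numbers are shared between groups, but same-numbered libraries did not deviate together in most comparisons. The correlations of their deviations from group means ran from -0.328 to 0.396, and in 0 of 14 comparisons did every one exceed 0.1. Between LCA, IsoLCA and IsoAlloLCA, however, all were positive, from 0.057 to 0.396. In IsoLCA against LCA and in IsoAlloLCA against IsoLCA all 6 libraries were closest to their own number, and in IsoAlloLCA against LCA 5 of 6 were. In the remaining comparisons 0 to 2 of 6 were. This is a hint from the data and not the design. With the replicate block LCA against control had 5 calls in place of 4 and DehydroLCA against control 1 in place of 0, the added gene being Cd27 in both, and no other call among the 9 genes changed. Over all genes the block gave 4974 calls in place of 4765 for LCA and 891 in place of 760 for DehydroLCA. Depth limits Cd70, at 3 or fewer counts per library. It also limits the precision of Tnfsf14 in every group and of Tnfsf4 outside IsoAlloLCA, at a few CPM.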

Other observations

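Within groups, Tnfrsf4, Tnfrsf9 and Tnfrsf18 varied together between libraries. Each library's log2 CPM was taken as a deviation from its group mean, over 24 libraries. Pearson's r of these deviations was 0.902 between Tnfrsf4 and Tnfrsf9, 0.921 between Tnfrsf4 and Tnfrsf18 and 0.929 between Tnfrsf9 and Tnfrsf18, with Spearman's rho of 0.843, 0.883 and 0.950. Cd27 deviated the other way, with r of -0.576 against Tnfrsf4, -0.533 against Tnfrsf9 and -0.524 against Tnfrsf18 (rho -0.518, -0.440 and -0.489). As an example, IsoLCA replicate 2 had 49.9 CPM of Tnfrsf4 and 81.6 CPM of Cd27, where the other libraries of its group had 63.1 and 66.6 CPM of Tnfrsf4 and 67.3 and 62.5 CPM of Cd27. Deviations in the share of reads in exons had r of 0.464 with Tnfrsf9 and 0.424 with Tnfrsf18, and their part was not tested. Across all 24 libraries, without removing group means, Tnfsf4 and Tnfrsf4 had r = 0.586, and over the 21 libraries without IsoAlloLCA r = -0.702. These values are descriptions of libraries that share groups.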
